A study of Mus musculus with 2 samples.

Results

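Of the CD45-enriched cells of subcutaneous MC38 tumors, a mouse colon adenocarcinoma line, a small set of natural killer (NK) cells was rich in transcripts of granzymes D, E and G. A cell barcode belonged to the set when it had at least 500 unique molecular identifiers (UMIs, each a counted transcript molecule) and 300 genes, at most 10% mitochondrial UMIs, at least 2 UMIs of Ncr1, Klrb1c and Klre1 together, at most 1 UMI of Cd3d, Cd3e and Cd3g, under 5 UMIs of Lyz2, C1qa, C1qb and C1qc, at least 20 UMIs of Gzmd, Gzme and Gzmg, and under 5 UMIs of the proliferation genes Mki67, Top2a, Birc5 and Pclaf. This rule found 112 cells in the normal diet library and 163 in the ketogenic diet library, 275 of the 11481 barcodes within the UMI, gene and mitochondrial limits. They are called granzyme-rich NK cells below, and the 668 and 1225 barcodes that met every other limit but held fewer than 20 UMIs of the 3 granzymes are called the other NK cells. Where 2 values stand together, the normal diet value comes first.

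The tumors grew in female C57BL/6J mice aged 6 to 8 weeks, after injection of the tumor cells in 100 µL with 50% matrigel into the right flank. One group stayed on a normal diet, and the second received a ketogenic diet from day 4 to the end. Tumors were taken on day 14, dead cells were removed, leukocytes were enriched with CD45 magnetic beads, and cells of 5 mice were pooled into 1 Chromium 3′ version 3.1 library per diet. With 1 library per diet, no difference between the diets could be tested, and the intervals given are exact 95% intervals for counting error only.

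Granzymes are serine proteases that cytotoxic lymphocytes store in granules and release onto a target cell, where perforin (Prf1) lets them pass the membrane. Gzma and Gzmb are the best studied members. Rodents carry further genes beside Gzmb in a cluster on chromosome 14, among them Gzmc, Gzmd, Gzme, Gzmf, Gzmg and Gzmn, and lymphocytes stimulated for long with interleukin-2 or interleukin-15 are known to express several of them.

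On the GRCm38 assembly, the genes of this cluster lie on the minus strand of chromosome 14. Gzme spans 56117626 to 56120625, Gzmd 56129556 to 56132608, Gzmg 56156582 to 56159579, Gzmn 56165797 to 56174599, Gzmf 56205263 to 56211417, Gzmc 56231441 to 56234656 and Gzmb 56258838 to 56262260. Gzma lies on chromosome 13, from 113093825 to 113100981. The promoters of the 5 genes from Gzmc to Gzmg, all abundant in the granzyme-rich cells, are shown with that of Gzmn, a neighbor that was nearly absent from the same cells, because they show how alike the 5 are. The sequences are RefSeq's (GRCm38.p6, minus strand, 250 bases before to 50 bases after the transcript start, written 5′ to 3′), and capitals mark the RUNX core TGTGGT on either strand, which reads ACCACA on the opposite one.
Gzmd: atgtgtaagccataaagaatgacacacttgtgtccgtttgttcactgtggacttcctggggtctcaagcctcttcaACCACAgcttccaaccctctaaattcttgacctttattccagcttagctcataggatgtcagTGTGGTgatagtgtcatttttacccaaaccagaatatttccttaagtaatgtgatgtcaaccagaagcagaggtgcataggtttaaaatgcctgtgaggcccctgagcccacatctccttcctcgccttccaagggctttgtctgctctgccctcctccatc
Gzme: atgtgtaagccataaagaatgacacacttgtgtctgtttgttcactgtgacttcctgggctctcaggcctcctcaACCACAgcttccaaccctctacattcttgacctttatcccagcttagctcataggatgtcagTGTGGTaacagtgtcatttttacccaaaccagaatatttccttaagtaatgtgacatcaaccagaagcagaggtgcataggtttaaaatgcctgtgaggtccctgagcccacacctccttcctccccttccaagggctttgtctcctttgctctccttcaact
Gzmg: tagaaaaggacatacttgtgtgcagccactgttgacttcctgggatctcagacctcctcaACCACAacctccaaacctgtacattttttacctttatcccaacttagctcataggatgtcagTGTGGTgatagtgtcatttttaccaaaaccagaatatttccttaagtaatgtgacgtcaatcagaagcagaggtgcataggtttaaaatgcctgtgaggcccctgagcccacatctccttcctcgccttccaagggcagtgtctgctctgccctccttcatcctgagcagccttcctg
Gzmf: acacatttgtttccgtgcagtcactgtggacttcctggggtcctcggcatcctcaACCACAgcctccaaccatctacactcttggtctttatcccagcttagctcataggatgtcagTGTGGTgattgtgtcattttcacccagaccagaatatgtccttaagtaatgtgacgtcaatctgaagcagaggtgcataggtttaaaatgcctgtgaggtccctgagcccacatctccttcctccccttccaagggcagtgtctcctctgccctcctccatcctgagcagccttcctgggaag
Gzmc: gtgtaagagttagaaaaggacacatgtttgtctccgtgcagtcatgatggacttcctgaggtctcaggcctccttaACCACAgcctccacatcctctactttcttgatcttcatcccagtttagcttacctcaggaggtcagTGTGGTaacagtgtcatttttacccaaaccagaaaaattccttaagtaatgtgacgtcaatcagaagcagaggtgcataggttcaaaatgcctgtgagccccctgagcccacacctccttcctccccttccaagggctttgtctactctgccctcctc
Gzmn: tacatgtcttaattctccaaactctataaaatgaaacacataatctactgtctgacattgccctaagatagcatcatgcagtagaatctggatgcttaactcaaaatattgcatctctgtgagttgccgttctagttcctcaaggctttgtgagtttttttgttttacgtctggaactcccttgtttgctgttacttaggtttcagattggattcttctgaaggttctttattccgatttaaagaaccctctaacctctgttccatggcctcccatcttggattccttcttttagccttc
Gzmd is at chr14:56132544-56132843, Gzme at chr14:56120576-56120875, Gzmg at chr14:56159530-56159829, Gzmf at chr14:56211358-56211657, Gzmc at chr14:56234608-56234907 and Gzmn at chr14:56174550-56174849. Each promoter from Gzmc to Gzmg held the core exactly 2 times, first as ACCACA and then as TGTGGT. The copies were 62 bases apart in Gzmd, Gzme, Gzmg and Gzmf and 66 apart in Gzmc, while Gzmb also had 2 copies, 59 apart, and Gzmn had none. Of 32851 RefSeq promoters of this length, 16.8% held the core at least once and 1.78% held it at least 2 times. Any 2 copies 59 to 66 bases apart were found in 28 (0.0852%). This range was taken from the promoters of Gzmb to Gzmg, which are themselves among the 28. The Gzmd and Gzme promoters were 93.7% identical, the other pairs among Gzmc to Gzmg were 84.7% to 89.3% identical, and these 5 shared 55.3% to 56.1% with Gzmn and 57.3% to 59.5% with Gzmb. A match describes letters, not a bound site, and the copies within the 5 similar promoters are not independent of each other. The same windows from Gzmc to Gzmg held no T-box motif TCACAC, STAT site TTCNNNGAA, AP-1 site TGANTCA or TATAAA on either strand, which occurred in 14.5%, 8.30%, 7.81% and 13.6% of all promoters. The E-box CANNTG, found in 72.3% of promoters, was in those of Gzmc, Gzmd, Gzme and Gzmf.

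The granzyme-rich cells were deeply sequenced compared with the other NK cells. Their median was 9955.5 UMIs per cell under the normal and 8260 under the ketogenic diet, with ranges of 1351 to 23194 and 2704 to 24495, against medians of 3736 and 3202 in the other NK cells. They had medians of 2535.5 and 2193 genes and 2.18% and 1.497% mitochondrial UMIs. A limit set in UMIs is reached more easily by a deep barcode, so comparisons with the other NK cells are also given for barcodes of the same depth range. The libraries held 37575996 and 42710007 UMIs, and 7 barcode sequences within the UMI and gene limits occurred in both.

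The markers that name the cells were present. Levels are CPM, the UMIs of a gene per 1000000 UMIs of the summed cells, and log2 ratios were taken after adding 20 CPM to both values. Prf1 was at 1770 (1694 to 1848) and 1576 (1512 to 1642) CPM, with a UMI in 111 of 112 and 161 of 163 cells. Serpinb9b, a serpin of the granzyme-inhibiting clade, stood at 154 and 216 CPM but had a UMI in only 32 and 61 cells. All 6 markers (Gzmg, Gzmd, Gzme, Gzmf, Prf1 and Serpinb9b) were at least 1.5-fold higher than in the other NK cells in both libraries, 3 of them by the rule itself. The 6 were chosen as markers with earlier results of these data known, so their higher levels are a description and no independent support for the name.

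Other NK genes, outside the rule, were present as well. Nkg7, a granule membrane protein, had a UMI in 111 of 112 and 163 of 163 cells, at 2356 and 2232 CPM, and Klrd1, the CD94 receptor chain, had one in every cell. Eomes, an NK transcription factor, was at 124 and 106 CPM, against 156 and 141 in the other NK cells. Nkg7 was also below the level of those cells (2814 and 3086 CPM). Klrk1 (508 and 427 against 770 and 629 CPM) and Klri2 (96.0 and 85.2 against 133 and 152) were lower too. Klrd1 (1313 and 1511 against 1293 and 1367) and Tyrobp (2495 and 2787 against 2604 and 2907) barely differed. Itga2, another NK marker, was scarce, at 2.62 and 7.56 against 24.2 and 29.0 CPM. The rule limits the CD3 genes, so the low Cd3d (5.24 and 7.56 CPM) and Cd3e (1.75 and 1.37) follow from it. Of T cell genes that it does not use, Trac was at 14.0 and 9.62 CPM, and Cd4 had no UMI in either library, which allows up to 2.62 and 2.06 CPM. The summed level of 15 T cell markers was 1522 and 1376 CPM. It came mainly from Thy1 (685 and 600 CPM), Trbc1 (570 and 484) and Trbc2 (208 and 216). In the other NK cells Trbc1 was at 549 and 448 and Trbc2 at 251 and 280 CPM. Of 6 measured T cell markers, only Thy1 was at least 1.5-fold higher than in the other NK cells in both libraries, and 1 was lower. Of all genes, 0.822% were higher and 1.68% lower. Within the same depth range, none of 5 measured T cell markers was higher and 1 was lower, against 0.463% and 0.597% of all genes. The 12 macrophage markers summed to 172 and 79.0 CPM, against 8606 and 5344 in the profile of barcodes with at most 100 UMIs, a measure of free RNA. The rule limits several of the 12, among them Lyz2 and C1qa, so part of this low level is set by it. All 12 had a UMI in the normal library, and in the ketogenic library C1qa, Adgre1 and Mrc1 had none. The 8 monocyte markers were not low, with a sum of 2177 and 2083 CPM against 1973 and 1540 in the other NK cells. The barcodes with at most 100 UMIs held 6054 and 5802 CPM of them. At least 5 UMIs of these markers were found in 100 of 112 and 144 of 163 granzyme-rich cells. Part of the sum came from Ccr2, which is also in the list of chemokine receptors, at 426 and 324 CPM. Of 5 measured monocyte markers, none was 1.5-fold higher or lower than in the other NK cells in both libraries.

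Granzyme C was the most abundant granzyme of these cells, although it was not used to choose them. It reached 30441 (30122 to 30762) CPM under the normal and 41629 (41298 to 41962) CPM under the ketogenic diet. Gzmd followed with 8031 and 8903 CPM, Gzmf with 6520 and 6826, Gzmb with 5341 and 4503, Gzma with 3675 and 2826, Gzme with 3031 and 3962 and Gzmg with 3146 and 2660. The order of Gzma, Gzme and Gzmg therefore differed between the libraries. Each UMI marks a transcript's 3′ end and is not scaled by length. The annotated transcripts of Gzmc to Gzmg run from 894 to 964 bases, so among these 5 the order would barely move per length. The deposited counts depend on how reads were split among similar genes. Words of the last 500 bases of each transcript were compared among the cluster genes Gzmb to Gzmg and Gzmn, not with other transcripts. Of the 50-base words, 79.4% of Gzmd, 81.8% of Gzme, 85.6% of Gzmg and 92.9% of Gzmf occurred in no other of these genes. For Gzmc and Gzmb it was 100%. Of the 90-base words, 98.3% of Gzmd and Gzme and 100% of Gzmf and Gzmg occurred in no other of them.

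The remaining granzymes were scarce in the same cells. Gzmn, which lies between Gzmg and Gzmf on the chromosome, had 5 UMIs in each library's granzyme-rich cells. Gzmk had 0 and 1, and Gzmm, whose gene lies outside the cluster, had 5 and 28, 12 of the 28 in 1 cell. The high granzyme level thus covered Gzmb to Gzmg and Gzma but not every granzyme gene.

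Individual cells held these transcripts in different ways. Gzmc had a median of 298.5 and 330 UMIs per cell, a lowest value of 32 and 7 and a highest of 842 and 1142. Gzmd, used by the rule, had medians of 43 and 42 UMIs, from 6 to 504 and from 8 to 720, and Gzme, also used, had medians of 16 and 19, with no UMI in 2 and 1 cells. Both were thus spread over nearly the whole set, as Gzmb was (medians of 39 and 21, no UMI in 1 and 4 cells). Gzma was less even, with medians of 18.5 and 11 UMIs and none in 30 and 41 cells. The sum of Gzmd, Gzme and Gzmg had a median of 63.5 and 70 UMIs and reached 1331 and 1899.

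**Figure D1:**
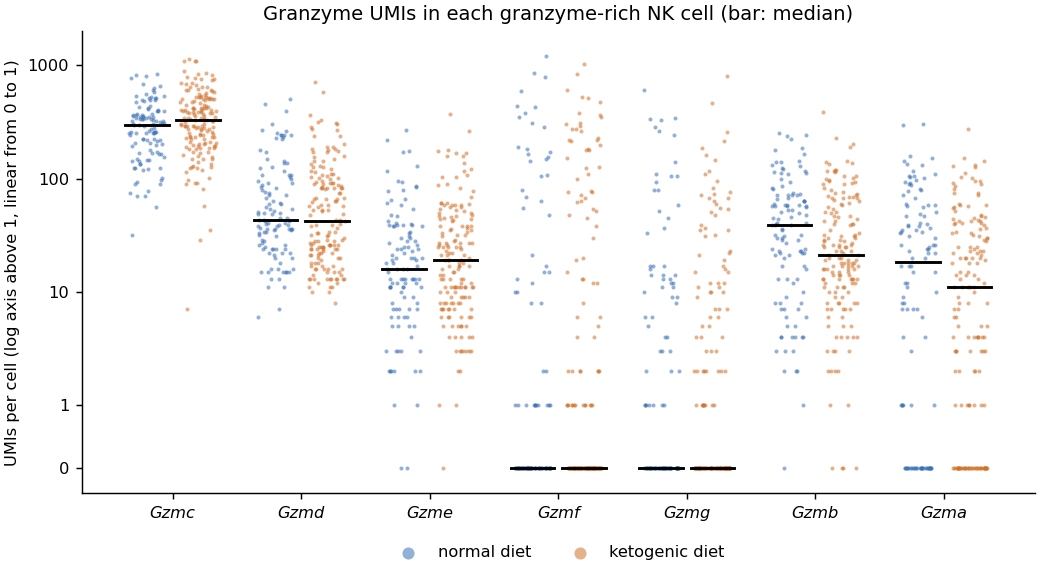
UMIs per cell of each granzyme in the granzyme-rich NK cells of the normal and ketogenic diet libraries, 1 point per cell on a scale that is logarithmic above 1 UMI, with the median as a bar. Gzmc, Gzmd and Gzmb filled nearly every cell, while Gzmf and Gzmg had a median of 0 and a tail of cells above 100 UMIs.

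Gzmf and Gzmg were concentrated in few cells. Gzmf had no UMI in 65 of 112 and 89 of 163 cells, yet 19 and 28 cells held at least 100, up to 1202 and 1020. Gzmg had no UMI in 58 and 88 cells, and 11 and 9 cells held at least 100, up to 607 and 808. The 12 and 17 cells with the most UMIs of a gene held 80.5% and 72.7% of the Gzmf UMIs and 82.0% and 79.1% of the Gzmg UMIs. For Gzmc the same number of cells held 23.0% and 23.7%, and for Gzmd 39.6% and 39.99%, so this concentration differed by gene within the same barcodes.

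Gzmf and Gzmg overlapped in part. At least 10 UMIs of both were found in 13 of 112 (11.6%) and 19 of 163 (11.7%) cells, Gzmf alone in 19 and 29, Gzmg alone in 20 and 25, and neither in 60 (53.6%) and 90 (55.2%). The shares of the 4 patterns were thus close in the libraries. Median depth was 11939, 9304, 10594 and 9523.5 UMIs for these patterns in the normal library and 8665, 7825, 9019 and 8144.5 in the ketogenic library, so the patterns were found at similar depths. Among the cells with Gzmf alone, 11 of 19 and 16 of 29 had no Gzmg UMI, and among those with Gzmg alone, 13 of 20 and 16 of 25 had no Gzmf UMI.

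**Figure D2:**
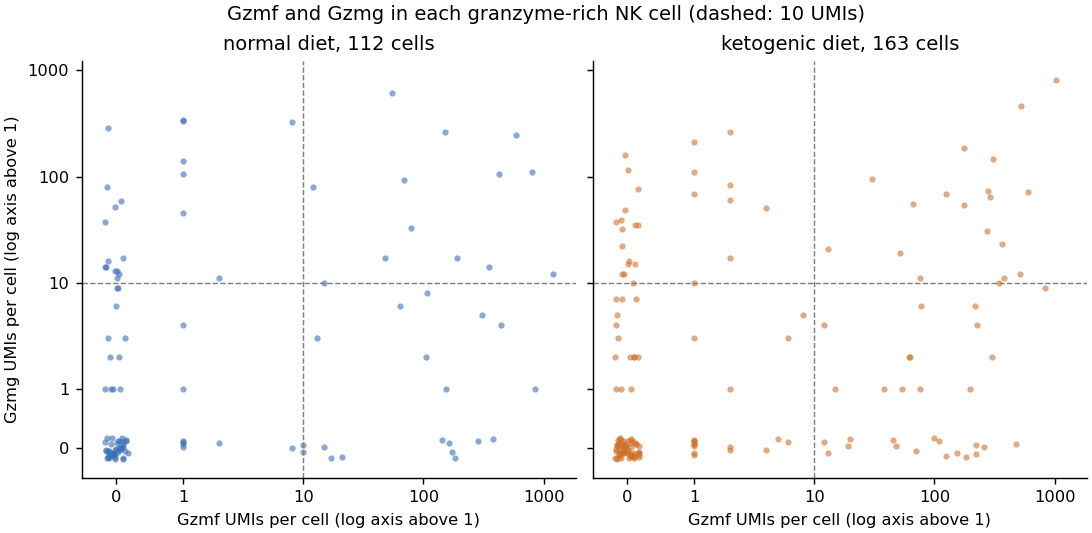
Gzmf against Gzmg UMIs in each granzyme-rich NK cell of both libraries, on axes that are logarithmic above 1 UMI, with cells at 0 spread slightly so that they can be seen and lines at 10 UMIs. Cells lie along both axes as well as in the upper right corner, where 13 and 19 cells had at least 10 UMIs of both.

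Rank correlations over the cells, given as a description of counts that share each barcode's library, were also taken. Per UMI, Gzmd and Gzme correlated with a Spearman rho of 0.68 over the 112 cells and 0.67 over the 163. Gzmd and Gzmg had a rho of 0.44 and 0.54, Gzmd and Gzmf 0.061 and 0.24, and Gzmf and Gzmg 0.30 and 0.32. Gzmc, the most abundant, had a rho of 0.32 and 0.26 with Gzmd and -0.082 and 0.038 with Gzmf. Reads shared between the similar Gzmd and Gzme transcripts were not measured here.

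Splitting the granzyme-rich cells at 10 UMIs of Gzmg, a division made after the values had been seen, set 33 and 44 cells against 79 and 119. Gzmd was higher in the Gzmg cells (14070 and 15263 against 5004 and 6161 CPM), as were Gadd45g, a stress-induced regulator of growth arrest (774 and 452 against 180 and 86.5), Spp1 (6571 and 6454 against 2528 and 3342) and Havcr2, the checkpoint receptor TIM-3 (62.8 and 79.8 against 15.7 and 18.7). Xcl1, a chemokine that attracts cross-presenting dendritic cells, was lower (204 and 253 against 1085 and 1675). Gzmc barely differed (log2 ratios of 0.06 and 0.05). Of 3891 genes measured, 8 were at least 2-fold higher in both libraries (Gzmg, Gadd45g, Basp1, Cd55, Gzmd, Gzme, Gzmf and Havcr2) and 6 lower, among them Xcl1, Cxcl10, Emb, Klrb1f and Dkc1. Gzmf itself was at 10461 and 12873 against 4544 and 4220 CPM. For Gadd45g, 1 cell held 162 of the 296 and 98 of the 198 UMIs of the Gzmg cells, and without each side's highest cell its log2 ratios fell from 1.99 and 2.15 to 1.14 and 1.33. Of the 8 genes, Gzmg was fixed by the split itself, and Gzmd and Gzme are genes of the rule. Gadd45g, Basp1, Cd55, Gzmf and Havcr2 were still 2-fold higher without each gene's highest cell on each side, as were Gzmd and Gzme.

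The same split at 10 UMIs of Gzmf separated less. Of 3961 genes, 2 were 2-fold higher in both libraries, Gzmf itself and the heat shock gene Hspa1a (23 and 35 UMIs in all), and 1 was lower, Xcl1 (424 and 560 against 955 and 1522 CPM). Gadd45g showed no such agreement, with log2 ratios of -0.03 and 1.67. Without each gene's highest cell on each side, Hspa1a was no longer 2-fold higher in the normal library (0.19 and 1.02), and Xcl1 was still lower (-1.32 and -1.65). Xcl1 was thus 2-fold lower in both libraries with either granzyme. The splits share the 13 and 19 cells with at least 10 UMIs of both granzymes, so they are not independent of each other.

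Set against the other NK cells, the granzyme-rich cells showed a short list of large differences beside many genes near the middle. The cells were chosen by values of the same counts, so these are descriptions, and the libraries give 2 separate values of each. Of 7904 genes with at least 20 UMIs in either set in each library, 18 (0.228%) were at least 2-fold higher in both libraries and 25 (0.316%) at least 2-fold lower. The median log2 ratio of all genes was -0.097 and -0.091. Across genes, which are not independent replicates, the ratios of the libraries had a Pearson r of 0.70 and a Spearman rho of 0.48.

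Within the depth range of the granzyme-rich cells, from the 5th to the 95th percentile of their UMIs, 100 and 145 of them were compared with 262 and 378 other NK cells, with medians of 9955.5 against 6456.5 and 8260 against 6295.5 UMIs. Depth was closer but not equal. Of 6696 genes, 10 (0.149%) were then 2-fold higher and 3 (0.0448%) 2-fold lower, all among the 18 and 25 above. The 10 were Gzmg, Gzmd, Gzme, Gzmf, Spp1, Basp1, Mt1, Myo10, Cd55 and Serpinb6a, and the 3 were Ccl4, Ccl5 and Xcl1. At 1.5-fold, 31 (0.463%) were higher and 40 (0.597%) lower. Ratios for this range are called depth-matched below.

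**Figure D3:**
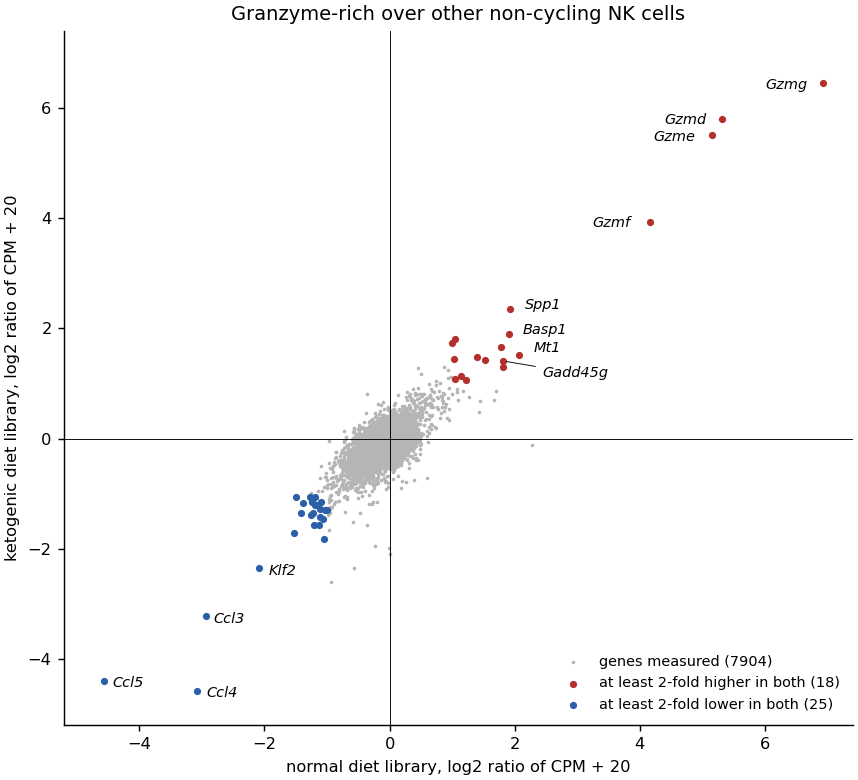
Log2 ratio of summed CPM (20 CPM added) in granzyme-rich over other NK cells for each of 7904 genes, normal diet library on the horizontal and ketogenic on the vertical axis, with the named genes labelled. Gzmg, Gzmd, Gzme and Gzmf stand far above the rest, Spp1 leads the other higher genes, and Ccl5, Ccl4, Ccl3 and Klf2 lead the lower ones.

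The granzymes themselves led. Gzmg was 6.93 and 6.45 log2 units higher, Gzmd 5.32 and 5.81 and Gzme 5.15 and 5.51, all fixed by the rule. Gzmf, not in the rule, was higher by 4.16 and 3.94 (6520 and 6826 against 347 and 427 CPM; depth-matched 3.69 and 3.38). Gzmc was higher by 1.03 and 1.44 from an already high level of 14864 and 15285 CPM in the other NK cells. Its depth-matched ratios were 0.66 and 0.90, under 2-fold. Gzmb was higher by 0.58 and 0.47, just short of 1.5-fold in both libraries. Its depth-matched ratios were 0.71 and 0.56, above 1.5-fold in the normal library only. Gzma was at 3675 and 2826 against 4475 and 5469 CPM (-0.28 and -0.95). At matched depth its log2 ratios were 0.67 and -0.14, so its direction turned in the normal library.

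UMIs of these granzymes were also found at a low level in barcodes of other cells. Macrophage-type barcodes (at least 20 UMIs of Lyz2 and C1q genes, none of the NK or CD3 genes; 1497 and 1124 barcodes, median depth 3995 and 3683.5 UMIs) held Gzmd at 13.4 and 15.3 CPM, Gzmf at 12.3 and 17.9 and Gzmc at 113 and 89.1. A Gzmf UMI was found in 5.74% and 5.87% of them, against 42.0% and 45.4% of the granzyme-rich cells, which were deeper. Levels in the other NK cells (Gzmd at 182 and 139 CPM) lay above the macrophage-type barcodes and below the profile of barcodes with at most 100 UMIs (569 and 915 CPM).

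Of the lytic machinery beyond granzymes, Prf1 stood alone. It was 0.95 and 0.91 log2 units higher (depth-matched 0.88 and 0.74), the only one of 22 measured genes of granule biogenesis and release that was 1.5-fold higher in both libraries, a limit passed by 0.822% of all genes, and none was 1.5-fold lower, where 1.68% of all genes were. Srgn, the proteoglycan that packs granule proteins, was at 1799 and 2208 against 1781 and 2178 CPM, Lamp1 at 97.8 and 93.4 against 118 and 104, and Ctsc, the protease that activates progranzymes, at 126 and 113 against 110 and 87.3. The list's median was -0.025 and 0.054.

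A list of serpins had 6 measured genes: Serpinb9, Serpinb9b, Serpinb6a and Serpinb6b of clade B, and Serpina3f and Serpina3g of clade A. Of the 6, Serpinb6a and Serpinb9b were at least 1.5-fold higher and none was lower. Of all genes, 0.822% were higher and 1.68% lower. Serpinb6a, which inhibits several serine proteases, was at 136 and 160 against 39.6 and 44.1 CPM (1.39 and 1.49; depth-matched 1.09 and 1.23), with a UMI in 58.0% and 64.4% of the granzyme-rich cells against 7.01% and 4.89% of the shallower macrophage-type barcodes. Serpinb9b differed by 0.87 and 1.30. Serpinb9, the inhibitor of granzyme B, did not follow, with 497 and 445 against 479 and 520 CPM.

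Spp1, the secreted phosphoprotein osteopontin, was the most abundant other gene that stood out. It was at 3878 (3765 to 3994) and 4279 (4173 to 4387) CPM against 1003 and 820, a log2 ratio of 1.93 and 2.36 (depth-matched 1.32 and 1.83). It had a UMI in 108 of 112 and 156 of 163 cells, with a median of 17.5 and 21 UMIs. Macrophage-type barcodes held 566 and 582 CPM, with a UMI in 34.3% and 22.2%. Spp1 was the only one of 9 measured cytokine and growth factor genes that was 1.5-fold higher, a limit passed by 0.822% of all genes. Ifng, the main cytokine of NK cells, was lower at 75.1 and 58.4 against 228 and 156 CPM (-1.38 and -1.17), but the depth-matched ratios were -0.72 and -0.28.

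The other genes 2-fold higher came from several families. Basp1, a membrane-bound signaling protein first described in neurons, was at 210 and 170 against 41.7 and 31.0 CPM (1.90 in both; depth-matched 1.33 and 1.65). Myo10, an unconventional myosin of filopodia, was at 154 and 111 against 30.5 and 21.4 (depth-matched 1.41 and 1.32). Cd55, an inhibitor of complement, was at 189 and 124 against 39.9 and 38.6. These 3 genes were thus 1.30 to 1.90 log2 units higher, at levels far below that of Spp1. Mt1, a metallothionein, was at 320 and 164 against 60.9 and 44.5 CPM, Gadd45g at 378 and 196 against 93.5 and 61.5, and Ifitm2, an interferon-inducible membrane protein, at 1614 and 1538 against 550 and 563. Gadd45g was uneven, with 37.4% and 34.3% of its UMIs in 1 cell of each library. The remaining 6 were Klrg1, Gm44040, Gzmc, Ccdc184, Adam8 and Tnfrsf9, the costimulatory receptor 4-1BB, which was at 805 and 887 against 378 and 410 CPM.

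The lowest genes were chemokines. Ccl5, an inflammatory chemokine, was at 47.1 (35.4 to 61.5) and 85.9 (71.5 to 102) CPM against 1572 and 2237, a log2 ratio of -4.57 and -4.41, and 35.2% and 54.4% of its UMIs in the granzyme-rich cells lay in 1 cell. Ccl4 was at 80.3 and 26.1 against 824 and 1094 CPM (-3.07 and -4.59), and Ccl3 at 16.6 and 4.81 against 260 and 213 (-2.94 and -3.23). All 3 stayed lower at matched depth but by much less: -2.48 and -1.72 for Ccl5, -1.26 and -2.81 for Ccl4, -0.81 and -1.52 for Ccl3. Macrophage-type barcodes held 761 and 304 CPM of Ccl5 and 910 and 973 CPM of Ccl4, more than the granzyme-rich cells, and the part of free RNA in the other NK cells' values was not tested. Of 8 measured chemokines, 5 were at least 1.5-fold lower in both libraries (Ccl3, Ccl4, Ccl5, Xcl1 and Cxcl10) and none was higher. Of all genes, 1.68% were lower and 0.822% higher. The median of the chemokines was -1.11 and -1.26 (depth-matched -0.84 and -1.25).

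Klf2 and Tcf7 were also lower. Klf2, a transcription factor that maintains quiescence and exit from tissue, was at 20.1 and 33.7 against 150 and 255 CPM (-2.08 and -2.36; depth-matched -1.004 and -0.97). Tcf7, which encodes TCF-1, a factor of less differentiated lymphocytes, was at 7.86 and 13.7 against 58.5 and 50.2 (depth-matched -1.25 and -0.92). Of 15 measured genes of circulating mature NK cells, 6 were 1.5-fold lower, among them Klf2, Itga2, Zeb2, Itga4 and Cma1, and 2 higher, Lgals3 (821 and 554 against 353 and 295 CPM) and Klrg1, an inhibitory receptor of terminally differentiated NK cells (83.8 and 116 against 30.1 and 18.7). Of all genes, 1.68% were 1.5-fold lower and 0.822% higher. At matched depth Klrg1 was still 1.5-fold higher and Klf2 still lower, of 12 measured, where 0.463% of all genes were higher and 0.597% lower.

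Of 15 measured genes of residency and type 1 innate lymphoid cells, none was 1.5-fold higher in both libraries and Ahr, Cd7 and Xcl1 were lower, against 0.822% and 1.68% of all genes. At matched depth Cd7 and Xcl1, of 14 measured genes, were still 1.5-fold lower, against 0.597% of all genes, and Ahr was not (-0.53 and -0.88). Itga1, the CD49a integrin chain, was at 163 and 141 against 131 and 69.7 CPM, while Cxcr6 (10.5 and 10.3 CPM), Il7r (4.37 and 6.18) and Tmem176b (16.6 and 23.4) were low. Of 24 NK transcription factors measured, 5 were 1.5-fold lower (Zeb2, Stat4, Nr4a1, Tcf7 and Klf2) and none was higher, with Eomes at 124 and 106 against 156 and 141 CPM and Tbx21, which encodes T-bet, at 55 and 43.3 against 84.7 and 64.9. At matched depth Nr4a1, Tcf7 and Klf2, of 22 measured factors, were still 1.5-fold lower, against 0.597% of all genes. Zeb2 had ratios of -0.65 and -0.26 there and Stat4 of -0.56 and -0.58.

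Receptors gave few calls, set beside the 0.822% of all genes that were 1.5-fold higher and the 1.68% that were lower. Among 18 measured activating receptors and adaptors, Klrb1c, the NK1.1 antigen that the rule itself uses, was at 111 and 137 against 331 and 381 CPM, and Cd160 at 27.1 and 30.2 against 52.2 and 63.2. No activating receptor was higher. Of 10 inhibitory receptors only Klrg1 passed, and of 6 measured checkpoint genes only Havcr2, at 31.4 and 37.1 against 7.002 and 4.24 CPM (0.93 and 1.24). Havcr2 lay at 71.5 and 70.9 CPM in macrophage-type barcodes. Lag3, another checkpoint receptor, was at 82.9 and 109 against 57.8 and 52.6 CPM and was 1.5-fold higher in the ketogenic library only. Of 15 cytokine receptors measured, Il12rb2, Il18r1, Il18rap and Ifngr1 were 1.5-fold lower and none higher. None of the 4 was 1.5-fold lower in both libraries at matched depth.

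Of the metabolic lists, glycolysis held the most higher genes. Of 20 measured glycolysis genes, 7 were at least 1.5-fold higher in both libraries and none lower, where 0.822% of all genes were higher and 1.68% lower: the glucose transporter gene Slc2a3 (59.4 and 44.0 against 19.96 and 16.5 CPM), Pgk1 (718 and 690 against 366 and 310), Aldoa, Gapdh, Pgam1, Eno1 and the lactate transporter gene Slc16a3. The median was 0.53 and 0.64, and 0.35 and 0.42 at matched depth, where Slc2a3 alone passed and 0.463% of all genes did. Of 24 nuclear-encoded genes of the respiratory chain, none was higher and Ndufa4 was lower (medians of -0.034 and -0.028), and of 16 genes of ketone and fatty acid use none passed in either direction. Among 26 genes of protein folding and secretion, P4hb passed and the median was 0.16 and 0.34.

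Some interferon-stimulated and early response genes were lower. Of 28 measured type I interferon-stimulated genes, 7 were at least 1.5-fold lower (Ifit1, Ifit2, Ifit3, Oasl2, Irf7, Ifi203 and Zbp1), against 1.68% of all genes, and none higher, with a median of -0.55 and -0.41 (depth-matched -0.38 and -0.26). Of 23 immediate early and heat shock genes, 7 were lower (Jun, Junb, Ier2, Dusp1, Zfp36, Btg2 and Nr4a1) and none higher, and the median was -0.44 and -0.56. Of 17 genes induced by interleukin-2 or interleukin-15 through STAT5, Tnfrsf9 was higher and Socs1, Socs3, Bcl2, Pim1 and Pim2 were lower. Of 13 TGF-beta response genes, Smad7, Skil, Ski, Cd9 and Pmepa1 were lower and none was higher. At matched depth Ifit2, Oasl2 and Ifi203 of the interferon genes, Junb, Dusp1, Zfp36 and Nr4a1 of the early genes and Cd9 of the TGF-beta response genes were still 1.5-fold lower, against 0.597% of all genes, and none of the STAT5-induced genes was.

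The genes outside the rule were also followed across NK cells with 0 or 1, 2 to 19, and at least 20 UMIs of Gzmd, Gzme and Gzmg. The 3 steps held 584, 84 and 112 cells in the normal library and 1109, 116 and 163 in the ketogenic library, and median depth rose with them, from 3311 to 5944.5 to 9955.5 and from 2892 to 6159 to 8260 UMIs. Gzmc was at 12112, 27095 and 30441 CPM and at 12556, 29526 and 41629. Most of its difference in CPM thus lay between the first and the second step in both libraries. Ccl5 did likewise in the opposite direction, with 1875, 229 and 47.1 CPM and 2623, 219 and 85.9, and so did Klf2, with 171, 53.4 and 20.1 and with 293, 59.3 and 33.7.

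Prf1, Serpinb6a and Spp1 differed more at the last step. Prf1 was at 874, 1046 and 1770 CPM and at 799, 980 and 1576, and Serpinb6a at 37.7, 47.7 and 136 and at 38.1, 75.1 and 160. Spp1 went from 905 to 1437 to 3878 and from 674 to 1585 to 4279, and Gzmf from 196 to 1016 to 6520 and from 207 to 1574 to 6826. The last step of Gzmf was the larger in CPM in both libraries, but as a fold the first was larger in the ketogenic library. Cells just inside the limit, with 20 to 24 UMIs (10 and 20 cells), had 28755 and 36088 CPM of Gzmc and 922 and 1113 of Prf1, and cells just outside it, with 15 to 19 UMIs (8 and 21 cells), had 38636 and 30487 of Gzmc and 1136 and 1185 of Prf1. Spp1 was at 2336 and 3062 inside against 2313 and 1214 outside, and Gzmf at 1465 and 1079 against 39.9 and 2636. Gzmc and Gzmf thus differed in opposite directions in the libraries.

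**Figure D4:**
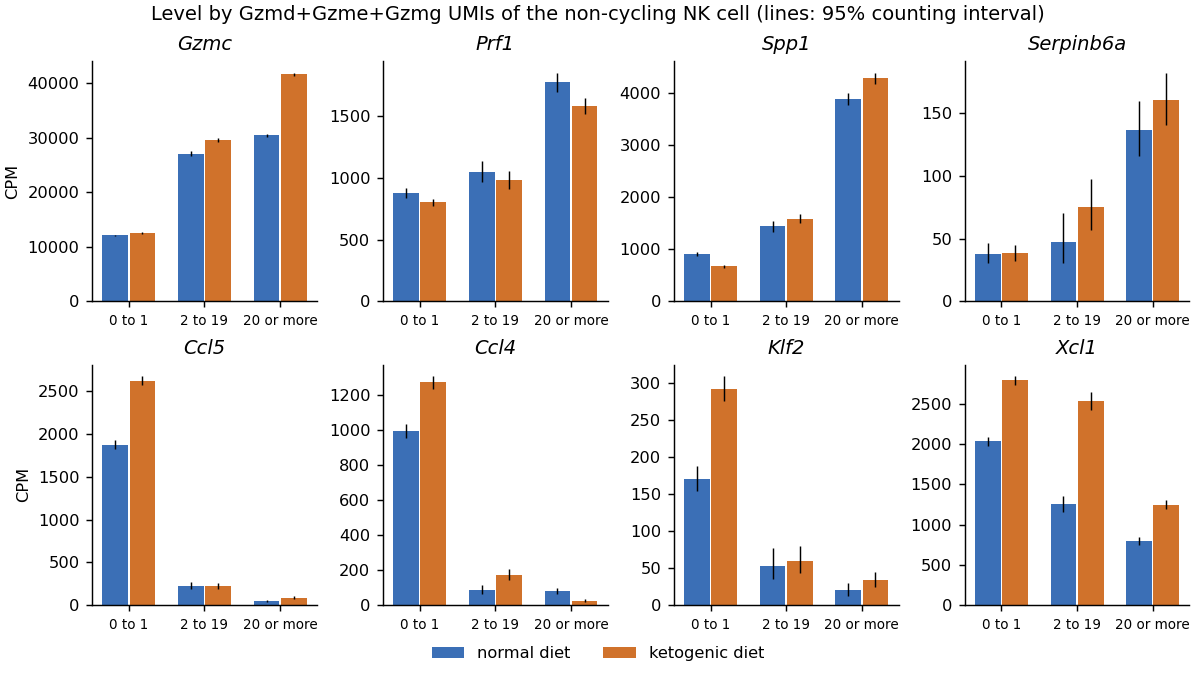
CPM, as bars from 0, of 8 genes outside the rule in non-cycling NK cells with 0 or 1, 2 to 19 and at least 20 UMIs of Gzmd, Gzme and Gzmg, per library, with exact 95% Poisson intervals as vertical lines. In CPM, Gzmc, Ccl5 and Klf2 differ most between the first and second step, and Prf1, Spp1 and Serpinb6a between the second and the third.

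Within the granzyme-rich cells, genes were also ranked by how closely their share of UMIs followed the granzyme sum. Over the 163 ketogenic cells and 2414 genes, the highest Spearman rho with Gzmd, Gzme and Gzmg per UMI was 0.46 for Basp1 (0.39 over the 112 normal cells), then 0.40 for Serpinb9b, 0.40 for Spp1 (0.42) and 0.36 for Prf1 (0.40). Serpinb9b was under the detection limit of 30% of cells in the normal library. Myo10, Klrg1, AA467197, Car2, Itgb3 and Pld3 followed with 0.29 to 0.33. Over the normal cells these 6 had 0.21, 0.22, 0.41, 0.12, 0.37 and 0.14, so Car2 and Pld3 were much weaker there. The lowest was Xcl1, at -0.48 and -0.46. All these values share the barcode's total as denominator and are given as a description.

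The granzyme-rich cells had cycling counterparts, barcodes that met the rule but held at least 5 UMIs of the proliferation genes. Of all granzyme-rich gated cells, 23 of 135 (17.04%, exact interval 11.1 to 24.5) and 39 of 202 (19.3%, 14.1 to 25.4) were cycling by this count, against 77 of 745 (10.3%, 8.24 to 12.7) and 98 of 1323 (7.41%, 6.05 to 8.95) of the remaining gated NK cells. The granzyme-rich cells were deeper, which makes 5 UMIs easier to reach. Cycling cells held Gzmc at 35649 and 31413 CPM and Prf1 at 1671 and 1286. Their Gzmf, at 4962 and 1717 CPM, and Gzmg, at 1209 and 381, lay below the non-cycling cells' values in both libraries.

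The NK gate did not take all cells with these transcripts. The 112 and 163 cells held 45.3% and 49.4% of the Gzmd, Gzme and Gzmg UMIs of all barcodes within the limits, the cycling granzyme-rich cells 9.88% and 13.0%, the other NK cells 2.02% and 2.23%, and barcodes outside the gate 42.2% and 34.1%. Outside it, 133 and 144 barcodes held at least 20 UMIs. Of these, 99 and 125 had at least 2 CD3 UMIs, 88 and 72 had at least 5 UMIs of Lyz2 and C1q genes, and 58 and 62 had both, and whether they were T cells or droplets with more than 1 cell was not tested. Barcodes that met the rule but for their CD3 UMIs numbered 26 and 35.

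Granzyme-rich cells made up 14.4% (11.97 to 17.02) of the 780 non-cycling gated NK cells under the normal diet and 11.7% (10.1 to 13.6) of the 1388 under the ketogenic diet. The log2 ratio of these shares was -0.29, with a counting interval of -0.65 to 0.070 that includes 0. Of all barcodes within the limits they were 1.997% (1.65 to 2.40) and 2.78% (2.37 to 3.23). The direction thus depended on the denominator, as the ketogenic library held more gated NK cells.

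The levels of the abundant granzymes lay within 1.5-fold of each other under the diets. Per summed UMIs, the ketogenic over normal ratio within the granzyme-rich cells was 1.37 (1.35 to 1.39) for Gzmc, 1.31 (1.25 to 1.36) for Gzme, 1.11 (1.08 to 1.14) for Gzmd, 1.05 (1.02 to 1.08) for Gzmf and 0.846 (0.808 to 0.885) for Gzmg. Gzmb had 0.843 (0.814 to 0.873), Gzma 0.769 (0.737 to 0.803), Prf1 0.890 (0.838 to 0.946), Spp1 1.10 (1.06 to 1.15) and Serpinb9b 1.40 (1.16 to 1.70). The intervals leave out the spread between cells and mice. In each library 1 cell held 16.8% and 20.9% of the Gzmg UMIs, and 1 cell held 16.1% and 10.3% of the Gzmf UMIs. None of these 10 genes reached 1.5-fold, while Xcl1 did, at 1.58 (1.46 to 1.71), from 791 to 1247 CPM. Xcl1 was also higher in the ketogenic library's other NK cells (2746 against 1887 CPM) and in its barcodes with at most 100 UMIs (1062 against 431).

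Of 5803 genes measured within the granzyme-rich cells, 37 (0.638%) were at least 1.5-fold higher in the ketogenic library and 125 (2.15%) at least 1.5-fold lower, with a median log2 ratio of -0.031. Trmt112, a cofactor of methyltransferases, was at 276 against 136 CPM (ratio 2.03, 1.68 to 2.46), Ost4, a subunit of the oligosaccharyltransferase, at 354 against 201 (1.77, 1.51 to 2.07), and Ndufa3, a complex I subunit, at 214 against 122 (1.75, 1.43 to 2.16). All 3 also were higher in the ketogenic library's other NK cells, by log2 ratios of 0.56, 0.61 and 0.54. Ifrd1 was at 78.3 against 27.9 CPM, and Tsc22d3, a glucocorticoid-induced gene, at 76.9 against 37.5. Both were also higher in the ketogenic library's other NK cells, by log2 ratios of 0.76 and 0.52. Gng11, a G protein gamma subunit, was at 64.6 against 27.9 CPM, and its ratio in the other NK cells was near 0 (-0.009). Ier5l and Ggct were 0.71 and 0.70 log2 units higher, and 0.79 and 0.15 higher in the other NK cells. Hspb1 (51 UMIs against 0) and Fabp5 (71 against 20) rested on 1 cell each, which held all 51 and 48 of the 71 UMIs.

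The lower genes were led by MHC class II genes, which present antigen in dendritic cells, B cells and macrophages. Cd74, the invariant chain, was at 92.7 against 416 CPM (ratio 0.223, 0.183 to 0.270), and H2-Aa, H2-Ab1 and H2-Eb1 had ratios of 0.268, 0.304 and 0.306. Of 6 measured MHC class II genes all were at least 1.5-fold lower. These UMIs sat in few cells: 5 cells of each library held 84.9% and 69.2% of the list's UMIs, 27 of 112 and 17 of 163 cells held at least 3, and the barcodes with at most 100 UMIs held 2209 and 1767 CPM of Cd74. Macrophage markers, at 172 and 79.0 CPM, and neutrophil markers, at 66.4 and 6.18, moved the same way, and their part in the difference was not tested.

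Among the other lower genes, Il1b, Ms4a6c and Alox5ap, genes of myeloid cells, were at 7.56, 12.4 and 8.24 against 46.3, 46.3 and 36.7 CPM. Fos was at 40.5 against 106 CPM. Without the 27 and 17 cells holding 3 or more MHC class II UMIs, an alternative chosen after the values were seen, their log2 ratios were -0.37, -0.51, 0.005 and -0.04. Mt2, a metallothionein, at 21.3 against 82.9 CPM, and Ccl4, at 26.1 against 80.3, still differed by -1.08 and -0.89. Mitochondrially encoded genes had a median of -0.43 in the granzyme-rich cells and -0.53 in the other NK cells, so this difference was found in both sets.

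**Figure D5:**
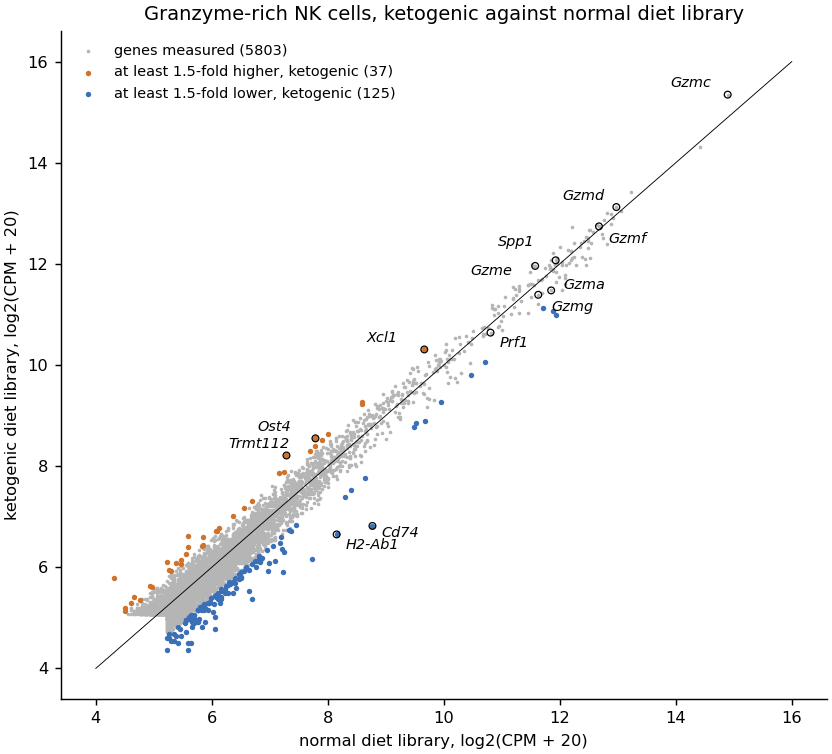
CPM in the granzyme-rich NK cells of the normal (horizontal) and ketogenic (vertical) diet library for 5803 genes, both on log2 axes after adding 20 CPM, with named genes labelled, a line at equality and colors for genes at least 1.5-fold apart. The granzymes, Prf1 and Spp1 lie within 1.5-fold of the line, and Cd74 and H2-Ab1 lie well below it.

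Lists that bear on the diet are set beside the 0.638% of all genes that were higher and the 2.15% that were lower. Of 15 measured genes of ketone and fatty acid use, none was 1.5-fold different (median 0.093), nor was any of 19 glycolysis genes (-0.037) or of 24 respiratory chain genes (0.19). Among 26 folding and secretion genes, with a median of 0.24, the disulfide isomerase genes Pdia3 (580 against 363 CPM) and Pdia6 (348 against 220) were higher and none was lower. Of 23 immediate early and heat shock genes, Fos, Jun and Dusp1 were lower. Of 28 type I interferon-stimulated genes, Ifi27l2a was higher and Oas3 and Ifih1 were lower.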

How the data were processed

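Gene expression of CD45-enriched tumor leukocytes was measured by droplet sequencing in 1 library per diet (normal, ketogenic), each a pool of 5 mice, so no test between diets was possible and no paired design exists. The authors deposited unfiltered matrices of raw UMI counts for every gene and barcode. Cell Ranger produced them; the version is 4 per the file headers but 6.0.0 per the submitters' processing notes. Those notes list Seurat 3.2.0 as well, with GRCm38 and mm10 as builds. The read length and the counting of reads that match several genes are not given in the sources used here.

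From these counts, barcodes were chosen by the UMI limits stated in the results, and their counts were summed per library and set of cells. Levels are CPM with exact Poisson intervals, shares have Clopper-Pearson intervals and ratios exact conditional intervals, all at 95% and for counting error only, and a count of 0 allows up to 3 counts. Log2 ratios use 20 CPM added to both values, over genes with at least 20 UMIs in either set of cells in each library (for the diets, in the granzyme-rich cells of either library). Granzyme-rich cells were compared with other gated NK cells (called at 2-fold in both libraries, or 1.5-fold for gene lists) and between diets (1.5-fold). Correlations used genes found in at least 30% of cells. No doublet caller was run. The limits on CD3, Lyz2 and C1q UMIs remove part of the mixed droplets. Named genes were the markers and genes of the rule, the 12 highest and 12 lowest of those 2-fold different in both libraries (mitochondrial, ribosomal and hemoglobin genes left out), the 10 highest and 10 lowest between diets with at least 50 UMIs, the 10 most correlated with the granzyme sum, and members of the lists described. Of 39 gene lists, those described are named where they are used. One gene counted in them is not reported here by name. The cells, genes and lists were chosen with earlier results of these data known. Positions are those of the GRCm38 annotation, and promoters are RefSeq's (GRCm38.p6). Promoter identity is from a gapped alignment with free end gaps. The ratios were checked on simulated counts. Python 3.11.15 was used with numpy 2.4.6, scipy 1.17.1, pandas 2.3.3 and matplotlib 3.10.9.

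Alternatives changed the granzyme limit, the depth range, the added CPM, the count filter, the scaling, the free-RNA correction and the limits on other genes, 1 at a time.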

Additional observations from a re-analysis of the deposited data

Results flagged for a closer look

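Il1r2, a decoy receptor for interleukin-1, differed in opposite directions between the granzyme-rich and the other NK cells of the libraries. In the normal diet library it was higher in the granzyme-rich cells, at 27.9 CPM (32 UMIs in 9 of 112 cells, 10 of them in 1 cell) against 11.6 CPM, a log2 ratio of 0.60. In the ketogenic diet library it was lower, at 0.687 CPM (1 UMI) against 14.0 CPM, a log2 ratio of -0.72. The ratios differ by 1.32 log2 units, and this difference was not tested, as each diet has 1 library. Neutrophil markers, a list that includes Il1r2, summed to 66.4 and 6.18 CPM in the same cells, and their part in the difference was not tested.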

How the results depend on the processing

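The share of granzyme-rich cells among non-cycling gated NK cells depended on the limit. In the normal library 14.4% became 18.6% at 10 UMIs and 10.9% at 40. In the ketogenic library 11.7% became 14.6% and 7.64%, and 9.80% where the granzymes had to make up 0.4% of a cell's UMIs. Thinning each cell to 2000 UMIs left out 163 and 344 shallower cells. The 0.4% limit was then met by 94 of 617 normal and 144 of 1044 ketogenic cells (13.8% of the latter). The summed level of Gzmd, Gzme, Gzmf and Gzmg moved from 20729 to 18945 CPM as a mean over cells, 17912 at a limit of 10 UMIs and 24671 at 40 in the normal library, and from 22351 to 21733, 19833 and 29113 CPM in the ketogenic library.

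Against other NK cells, 18 genes higher became 48 with 1 CPM added, 10 at matched depth and 65 at 1.5-fold. The 25 lower genes became 156, 3 and 133, and were 41 against NK cells with 0 or 1 granzyme UMI and 67 as a mean over cells. List medians, averaged over the libraries, moved at matched depth from 0.585 to 0.383 for glycolysis, -1.18 to -1.05 for chemokines, -0.538 to -0.226 for circulating NK genes, -0.429 to -0.235 for activating receptors, -0.500 to -0.360 for immediate early genes, -0.480 to -0.316 for interferon-stimulated genes and -0.491 to -0.386 for TGF-beta response genes. With 1 CPM added they were -1.37 for chemokines, -0.844 for circulating NK genes, -0.597 for interferon-stimulated genes and -0.859 for TGF-beta response genes. As a mean over cells they were 0.739 for glycolysis, -0.938 for circulating NK genes, -0.533 for activating receptors and -0.741 for immediate early genes, and the chemokine median was -1.30 with the low-UMI profile subtracted. The cause of these shifts was not tested. None of the 24 named genes changed direction in any alternative run. They were picked as the most extreme genes 2-fold different in both libraries, and the rule fixes the direction of Gzmd, Gzme and Gzmg. A reversal was thus unlikely from the start. Of the 24, 19 moved at matched depth, 16 as a mean over cells, 15 with 1 CPM added and 11 against NK cells with 0 or 1 granzyme UMI.

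Between the diets, 37 genes higher became 285 with 1 CPM added, 19 at 100 UMIs or more, 24 at a limit of 10 UMIs and 56 with Lyz2 and C1q at most 1 UMI, and 125 lower became 575 with 1 CPM added and 37 at 100 UMIs or more. Without cells holding 3 or more MHC class II UMIs, an alternative chosen after seeing the data like the 1.5-fold limit and the removal of each gene's top cell, Alox5ap reversed to 0.004595 and 9 of the 20 named genes moved; for the MHC class II genes this follows from the removal itself. Without each gene's highest cell on each side, also chosen after seeing the data, the genes 2-fold higher in the cells with 10 or more Gzmf UMIs went from 2 to 1 and those lower from 1 to 2, as Hspa1a was lost and Ccl1 gained. No paired analysis was possible because each diet has 1 library. Pooled mice, free RNA, doublets and reads shared by similar granzyme transcripts limit all values, and low genes rest on few UMIs.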

Other observations

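Ccl1, a chemokine outside the rule for named genes and picked after its values were seen, was at 116 CPM in the granzyme-rich cells and 8.05 in the other NK cells of the normal library, and at 50.1 and 56.4 in the ketogenic library. It was found in 6 of 112 and 10 of 163 granzyme-rich cells, and 1 cell held 72.2% and 32.9% of its UMIs. Thy1, a surface glycoprotein of T and NK cells, was at 685 and 600 CPM against 376 and 348 in the other NK cells. Barcodes that met the rule but for 2 or more CD3 UMIs had medians of 10354.5 and 11752 UMIs, close to or above the granzyme-rich cells, and medians of 62 and 59 UMIs of Gzmd, Gzme and Gzmg together.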
